A study of Mus musculus with 9 samples.

Results

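The testis-specific serine kinases (Tssk) are a small family of protein kinases whose mRNAs are found mainly in male germ cells after meiosis. The genes described here are the 6 kinases Tssk1, Tssk2, Tssk3, Tssk4, Tssk5 and Tssk6 and 2 genes for proteins that bind them: Tsks, which encodes a substrate of TSSK1 and TSSK2, and Tsacc, which encodes a co-chaperone of TSSK6. They were chosen by symbol, as the rows of the count and FPKM tables whose NCBI gene identifier carries one of these 8 names. All 8 were present, of 21877 NCBI genes and 50493 features in all, and all 8 passed the filter on low counts that left 26030 features for testing.

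RNA was sequenced from 3 kinds of germ cell isolated from wild-type (WT) mouse testis, with 3 libraries of each. Pachytene spermatocytes (PAC) are in meiosis, where paired chromosomes recombine. Round spermatids (RS) are haploid and have completed both divisions. Elongating spermatids (ES) compact their nuclei and grow a tail. The design text calls the libraries biological replicates. Neither the age or number of the animals behind a library nor the way the cells were separated is given in the sources used here, so p-values measure only the spread between these libraries.

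TSSK1 and TSSK2 act together with TSKS, which in mouse spermatids sits in the chromatoid body, a granule of RNA and protein near the nucleus, and male mice without Tssk1 and Tssk2 are sterile. TSSK3 is needed for male fertility in mice, and TSSK4 phosphorylates ODF2, a protein of the dense fibres of the sperm tail. TSSK6 is needed for compaction of the sperm nucleus. It depends on the chaperone HSP90 for its stability, and TSACC, which binds both TSSK6 and HSP70, activates it.

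Total counts ran from 22910156 to 33801617 per library, and the scaling factor (TMM, which corrects library totals for composition) was lowest, 0.758, in ES replicate 1, against 0.923 to 1.099 in the other 8 libraries. Most stage markers moved with the labels. All 8 pachytene markers tested were lower in RS than in PAC, all 6 round spermatid markers were higher in RS than in PAC and lower in ES than in RS, and all 8 elongating spermatid markers were higher in RS than in PAC and in ES than in RS. In ES relative to RS, 3 pachytene markers were higher (Piwil1 4.28-fold, Meiob 1.86-fold and Hormad1 1.34-fold), 1, Spo11, was lower and 4 were not called. The pachytene markers summed to 1887 to 2003 CPM in PAC, 504.0 to 541.9 CPM in RS and 501.1 to 688.8 CPM in ES. The summed elongating markers ran from 2134 to 2945 CPM (counts scaled to a common library total) in PAC, from 15352 to 17491 CPM in RS and from 42155 to 71556 CPM in ES. Markers of somatic testis cells also moved with cell type. The 10 Sertoli cell markers summed to 61.9 to 150.6 CPM in PAC, 53.9 to 59.2 CPM in RS and 426.9 to 517.3 CPM in ES, and 9 of 9 tested were higher in ES than in RS. In RS relative to PAC, 8 of these 9 were lower. The other, Amhr2, was not called and made up most of the RS sum. It averaged 47.7 ± 2.61 CPM in RS and 40.0 ± 19.1 CPM in PAC (SD, n = 3 each). The 9 macrophage and blood markers summed to 4.71 to 5.72, 16.6 to 19.0 and 135.5 to 213.5 CPM in PAC, RS and ES, and the 8 Leydig cell markers to 87.6 to 120.1, 1.64 to 1.87 and 9.7 to 12.8 CPM. Peritubular and vascular markers summed to 5.38 to 7.17 CPM in PAC, 13.3 to 22.2 CPM in RS and 20.7 to 23.9 CPM in ES. Spermatogonial markers summed to 17.7 to 20.2, 28.0 to 31.7 and 22.2 to 29.0 CPM in the same order. Fshr, a Sertoli cell receptor, and Lhcgr, a Leydig cell receptor, had no counts in RS. Fshr was also nearly absent elsewhere, with means of 0.0244 CPM in PAC and 0.0316 CPM in ES, and was not tested. Lhcgr averaged 1.38 ± 0.493 CPM in PAC and 0.0644 ± 0.0267 CPM in ES (SD, n = 3 each). What the cells behind these markers contribute to the results was not tested.

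Tssk1 and Tssk2 lie next to each other on mouse chromosome 16, on the same strand, with 2983 bases between them. In GRCm38.p6, Tssk1 spans chr16:17894203-17895653 and Tssk2 spans chr16:17898637-17900024. Their coding sequences, of 1095 and 1074 bases, were identical at 865 of 1036 aligned bases (83.5%). Among the other pairs of Tssk1, Tssk2, Tssk3 and Tssk6, identity was between 63.5% and 67.5%. The longest run that Tssk1 and Tssk2 share letter for letter is 113 coding bases, against 11 to 13 in the other pairs. It is shown because a read that falls wholly inside it cannot be assigned to either gene by its own sequence. It lies at chr16:17894723-17894835 in Tssk1 and at chr16:17899105-17899217 in Tssk2, on the plus strand of GRCm38 in both.
Tssk1 and Tssk2: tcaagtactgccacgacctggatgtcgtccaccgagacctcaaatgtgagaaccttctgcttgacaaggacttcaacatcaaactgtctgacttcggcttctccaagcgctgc
Shared runs of 50 bases or more covered 20.4% of the Tssk1 coding bases, and runs of 25 or more covered 28.6%. The counts of Tssk1 and Tssk2 were both fractional in 6 of 9 libraries, while their sum was a whole number in all 9 (to within 0.011 counts), and the counts of the other 6 genes were whole in every library. How the authors' counting divided shared reads between the pair is not given in the sources used here, so values of Tssk1 and Tssk2 are also given summed.

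The 250 bases before the start of Tssk1, Tssk2 and Tssk6 are shown because the first pair differ in ES and Tssk6 reaches the highest level of the family. They come from RefSeq for GRCm38.p6 and are all on the plus strand, at chr16:17893953-17894202 for Tssk1, chr16:17898387-17898636 for Tssk2 and chr8:69901934-69902183 for Tssk6. Capitals in Tssk1 and Tssk2 mark TGACTTCA or its reverse complement TGAAGTCA, and those in Tssk6 mark TGACG. The last is the left part of TGACGTCA, the site bound by CREB and CREM, and CREM is a transcription factor of the postmeiotic programme.
Tssk1: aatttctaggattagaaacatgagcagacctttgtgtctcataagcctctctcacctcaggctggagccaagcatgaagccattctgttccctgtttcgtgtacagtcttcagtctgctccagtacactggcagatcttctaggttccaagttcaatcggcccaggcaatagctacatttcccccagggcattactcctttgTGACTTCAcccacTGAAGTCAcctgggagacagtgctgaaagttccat
Tssk2: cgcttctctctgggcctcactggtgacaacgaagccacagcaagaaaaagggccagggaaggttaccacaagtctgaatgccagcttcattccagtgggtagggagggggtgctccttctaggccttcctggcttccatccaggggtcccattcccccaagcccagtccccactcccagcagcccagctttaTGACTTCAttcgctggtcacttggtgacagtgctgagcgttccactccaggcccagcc
Tssk6: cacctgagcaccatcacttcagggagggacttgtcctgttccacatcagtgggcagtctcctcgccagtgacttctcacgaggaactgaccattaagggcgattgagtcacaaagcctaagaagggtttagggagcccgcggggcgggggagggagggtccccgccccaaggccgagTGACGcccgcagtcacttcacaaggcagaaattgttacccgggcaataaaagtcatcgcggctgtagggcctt
RefSeq windows were at hand for 7 of the 8 genes, and Tssk5 had none. Those of Tsks (chr7:44942990-44943239), Tssk4 (chr14:55649934-55650183) and Tssk3 (chr4:129490771-129491020) lie inside the gene spans given here, not before their starts. Tsacc had more than 1 window, of which chr3:88296839-88297088 overlaps its span. Motifs were searched on both strands. TGACGTCA was in 1.55% of all 32851 windows of this length and in no window of these genes. TGACG or CGTCA was in 17.8% of windows and, among these genes, in that of Tssk6, 73 bases before the start. TGACTTCA or TGAAGTCA was in 1.31% of windows and, among these genes, in those of Tssk1 (48 and 35 bases before the start) and Tssk2 (58 bases before the start), but this motif was picked after the sequences had been seen. TATAAA was in 12.4% of windows and in no window of these genes. CCAAT or ATTGG was in 33.8% of windows and in those of Tsacc, Tssk3 and Tssk4. Apart from such short matches the Tssk1 and Tssk2 windows had little in common, with a longest shared run of 11 bases, gacagtgctga.

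The first comparison asked how the genes change as spermatocytes become round spermatids. All 8 rose in RS relative to PAC, and no gene's libraries overlapped between the 2 cell types. The increase was 7.11-fold for Tssk6, 4.59-fold for Tsks, 4.39-fold for Tssk2, 4.32-fold for Tssk3, 3.57-fold for Tssk1, 2.91-fold for Tssk4, 2.52-fold for Tssk5 and 1.78-fold for Tsacc. Across all features 38.2% were called higher in RS and 34.2% lower, with edgeR's quasi-likelihood test at a Benjamini-Hochberg adjusted p below 0.05, and without overlap 42.1% were higher in RS and 37.0% lower. The median log2 fold change was 1.98 over the 8 genes, 0.11 over all features tested and -0.46 over the 14836 protein-coding genes tested. These libraries hold bulk RNA scaled to a total, so fewer cells of a type and less RNA per cell cannot be told apart.

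From round to elongating spermatids the genes parted. Tssk6, Tssk3, Tssk2, Tsacc and Tsks rose further in ES relative to RS, Tssk4 and Tssk5 fell, and the change of Tssk1 did not pass the test. Against these 5 higher and 2 lower genes, 24.5% of all features were called higher in ES and 22.1% lower. The same 7 genes had no overlap between ES and RS libraries, as had 30.2% of features that were higher and 29.3% that were lower. Tssk6, Tssk3, Tssk2, Tsks and Tsacc were thus called higher at both steps, as were 7.86% of features, and were higher in ES than in both other cell types, as were 13.3% of features. Tssk4 and Tssk5 were higher in RS than in both others, as were 13.4% of features. In ES relative to PAC, 6 of the 8 genes were higher and none lower, where 30.6% and 33.7% of features were. The DESeq2 Wald test also called 6 and 0, where it called 8874 and 8387 of 39814 features. In edgeR, Tssk5 had the lowest value of the 8 genes, -0.26 ± 0.28 (SE). The 6 had no overlap, as had 32.0% of features that were higher and 35.5% that were lower, and the 2 not called, Tssk4 and Tssk5, had overlapping libraries. Median log2 fold changes were 0.78 over the 8 genes and 0.05 over all features in ES against RS, and 2.3 and -0.09 in ES against PAC. The 3 comparisons share libraries, so they are not independent of each other. The division of all calls depended on the scaling: in ES against RS 52.6% of calls were higher ones as reported, 61.0% with DESeq2 size factors and 31.4% to 32.8% with the authors' FPKM, and in ES against PAC 47.6% as reported and 57.9% with upper-quartile factors.

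**Figure D1:**
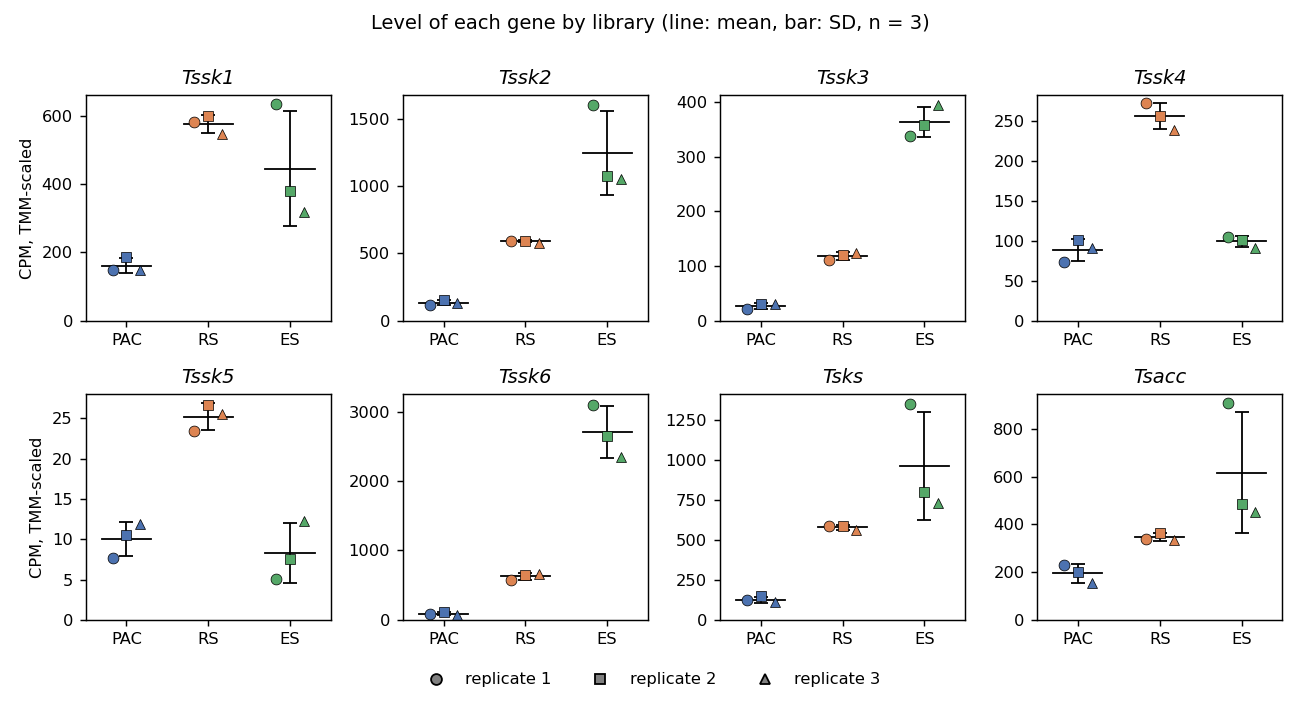
Level of each gene in CPM after TMM scaling (vertical axes, each from 0) in the 3 PAC, 3 RS and 3 ES libraries. Symbols are libraries, horizontal lines are means and bars are SD. Tssk2, Tssk3, Tssk6, Tsks and Tsacc have all ES libraries above all RS libraries, and Tssk4 and Tssk5 have all RS libraries above the rest.

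**Figure D2:**
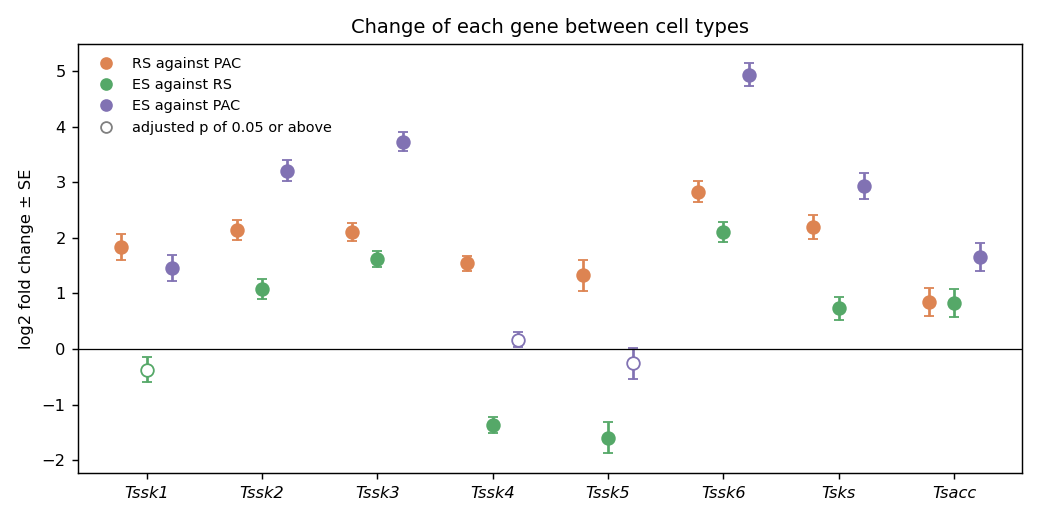
Log2 fold change with its SE (vertical axis) of each gene in RS against PAC, ES against RS and ES against PAC, from edgeR's quasi-likelihood test. Filled points passed an adjusted p of 0.05 over all features. The RS against PAC values run from 0.84 for Tsacc to 2.83 for Tssk6, and the ES against RS values from -1.6 for Tssk5 to 2.11 for Tssk6.

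Tssk6 (gene 83984, chr8:69902184-69903518), the kinase of nuclear compaction, had the steepest course. Its level was 79.2, 111.5 and 73.4 CPM in the PAC libraries, 570.9, 648.8 and 656.9 CPM in RS and 3098, 2653 and 2351 CPM in ES. Each cell type was clear of the one before it. The log2 fold change was 2.83 ± 0.19 in RS against PAC (SE, edgeR adjusted p = 3.45e-07), 2.11 ± 0.18 in ES against RS (adjusted p = 6.96e-06) and 4.94 ± 0.2 in ES against PAC (adjusted p = 2.22e-08), a 30.7-fold difference. In FPKM, which is scaled by length and so allows levels to be compared between genes, Tssk6 ranked 1491 of 21405 protein-coding genes in PAC, 171 in RS and 30 in ES. Ndufa13, a subunit gene of respiratory complex I on the other strand, overlaps it by 375 bases. Ndufa13 averaged 208.0 ± 87.9 CPM in ES and 110.9 ± 7.72 CPM in RS (SD, n = 3 each), a log2 fold change of 0.91 (edgeR adjusted p = 0.0168). The library kit kept strand, but whether the counting used it is not given in the sources used here.

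Tsacc (gene 76927, chr3:88282752-88296999, minus strand), the co-chaperone of TSSK6, took a flatter course. Its level was 230.3, 199.5 and 153.6 CPM in PAC, 339.4, 366.1 and 335.5 CPM in RS and 908.7, 486.5 and 453.8 CPM in ES. The cell types did not overlap, but ES replicate 1 stood well above the other ES libraries. The log2 fold change was 0.84 ± 0.25 in RS against PAC (SE, edgeR adjusted p = 0.0109) and 0.83 ± 0.25 in ES against RS (adjusted p = 0.0183). Without ES replicate 1 the second was 0.44 (adjusted p = 0.0414). It was not called without RS replicate 1 (0.8, adjusted p = 0.062) or RS replicate 3 (0.8, adjusted p = 0.0609), nor in FPKM (0.42, adjusted p = 0.104 to 0.29). Cct3, a chaperonin subunit gene that starts 135 bases away and is read in the other direction, was lower at each step, with log2 fold changes of -0.61 in RS against PAC and -0.46 in ES against RS (edgeR adjusted p = 0.00212 and 0.0174).

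The count of Tsacc was 2.91, 1.79 and 2.09 times that of Tssk6 in the PAC libraries, 0.595, 0.564 and 0.511 times in RS and 0.293, 0.183 and 0.193 times in ES. This ratio within a library does not depend on library scaling, and it was lower at each step with no overlap. On the log2 scale it averaged 1.15 ± 0.36 in PAC, -0.85 ± 0.11 in RS and -2.2 ± 0.37 in ES (SD, n = 3 each). The difference was -2.0 in RS against PAC and -1.35 in ES against RS, each with an exact two-sided permutation p of 0.1, the smallest that 3 against 3 libraries can give, and 0.12 after adjustment over the 12 ratio tests made.

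Tssk1 (gene 22114), which forms a complex with TSKS, was at 147.7, 185.8 and 149.2 CPM in PAC, 582.1, 598.1 and 545.5 CPM in RS and 635.1, 378.7 and 318.6 CPM in ES. RS was clear of PAC, while ES replicate 1 lay above all RS libraries and the other ES libraries below them. The log2 fold change was 1.84 ± 0.23 in RS against PAC (SE, edgeR adjusted p = 3.09e-05) and -0.37 ± 0.22 in ES against RS (adjusted p = 0.189). Without ES replicate 1 the second was -0.72 (adjusted p = 0.00182), and in FPKM it was -0.77 (adjusted p = 0.00524 to 0.0377). ES was above PAC, by 1.46 ± 0.23 (adjusted p = 0.000155).

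Tssk2 (gene 22115), its neighbour and close relative, was at 115.8, 156.0 and 131.1 CPM in PAC, 594.7, 594.2 and 581.2 CPM in RS and 1604, 1078 and 1056 CPM in ES. All ES libraries stood above all RS libraries, with ES replicate 1 again the highest. Tssk2 changed by a log2 fold change of 2.14 ± 0.18 in RS against PAC (SE, edgeR adjusted p = 2.07e-06) and 1.08 ± 0.18 in ES against RS (adjusted p = 0.000483), and it was 0.85 at the second step without ES replicate 1 (adjusted p = 0.000381).

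The 2 adjacent genes had nearly equal counts in RS and unequal ones in ES. The count of Tssk1 was 1.28, 1.19 and 1.14 times that of Tssk2 in PAC, 0.979, 1.01 and 0.939 times in RS and 0.396, 0.351 and 0.302 times in ES. The log2 ratio differed by -1.49 in ES against RS and by -0.3 in RS against PAC, without overlap (exact two-sided permutation p = 0.1 and adjusted 0.12 for each). Every ES library showed the lower ratio, ES replicate 1 included. Reads shared by the pair enter both counts by a rule that is not known here. Summed, the pair had 263.6, 341.9 and 280.2 CPM in PAC, 1176, 1193 and 1127 CPM in RS and 2240, 1457 and 1375 CPM in ES. The sum was higher in RS than in PAC by a log2 fold change of 1.98 ± 0.19 (SE, edgeR adjusted p = 4.63e-06) and in ES than in RS by 0.54 ± 0.19 (adjusted p = 0.0327). The second call was lost without ES replicate 1 (0.28, adjusted p = 0.0939) and without any single RS library (0.5 to 0.53, adjusted p = 0.0894 to 0.102).

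Tsks (gene 22116, chr7:44929472-44958041), the shared substrate, was at 121.7, 146.5 and 108.9 CPM in PAC, 584.2, 585.5 and 560.3 CPM in RS and 1347, 801.3 and 728.0 CPM in ES. It rose at both steps without overlap, with the widest spread in ES. Log2 fold changes of Tsks were 2.2 ± 0.22 in RS against PAC (SE, edgeR adjusted p = 6.42e-06) and 0.73 ± 0.21 in ES against RS (adjusted p = 0.0147). The ES against RS value was 0.41 without ES replicate 1 (adjusted p = 0.0295). It was not called without RS replicate 3 (0.7, adjusted p = 0.0534) or in FPKM (0.34, adjusted p = 0.132 to 0.297).

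Tsks was nearer to Tssk2 than to Tssk1 in its course. The count of Tsks was 2.12, 2.12 and 2.28 times that of Tssk1 in ES and 1.0, 0.979 and 1.03 times in RS, a log2 difference of 1.11 without overlap (exact two-sided permutation p = 0.1, adjusted 0.12). Its log2 ratio to Tssk2 averaged -0.1 ± 0.17 in PAC, -0.03 ± 0.02 in RS and -0.41 ± 0.14 in ES (SD, n = 3 each). The difference in that ratio was 0.06 in RS against PAC (exact two-sided permutation p = 0.7), with overlapping libraries, and -0.37 in ES against RS (exact p = 0.1, adjusted 0.12), without overlap. Over all 9 libraries Tssk2 and Tsks had the most similar profiles of any pair of the 8 genes, with a root mean square difference of 0.193 between their centred log2 CPM profiles, against 0.787 for Tssk1 and Tssk2. This measure is a description over libraries that share their scaling. Both it and the ratios rest on counts in which reads shared by Tssk1 and Tssk2 were divided by a rule not known here. Neither was computed for Tsks against the summed pair.

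**Figure D3:**
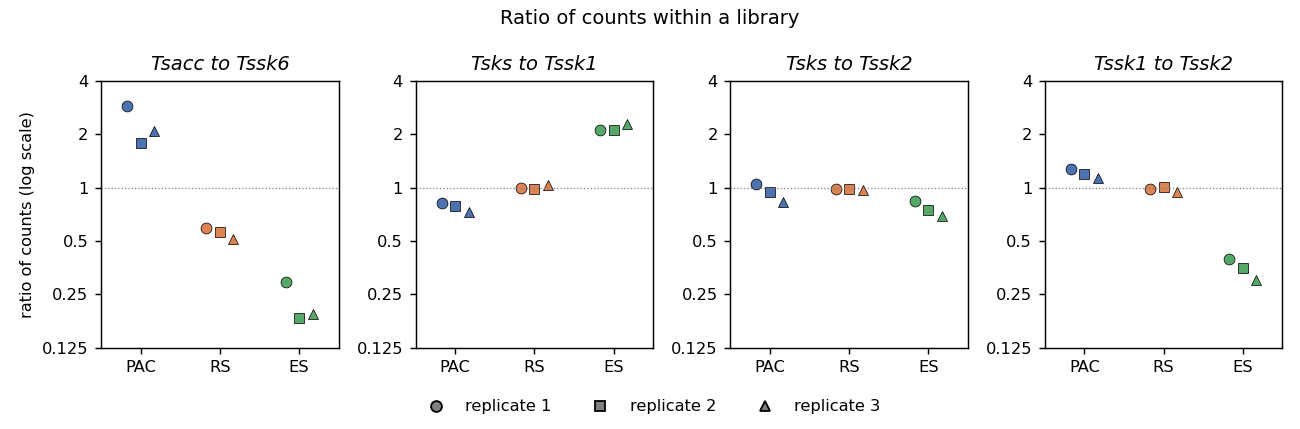
Ratio of counts within each library (vertical axes, log scale, dotted line at 1) for Tsacc to Tssk6, Tsks to Tssk1, Tsks to Tssk2 and Tssk1 to Tssk2, in PAC, RS and ES. Symbols are libraries. The Tsacc to Tssk6 ratio is at or below 0.293 in all ES libraries and above 1 in all PAC libraries, and the Tsks to Tssk2 ratio is between 0.689 and 1.05 in all 9 libraries.

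Tssk3 (gene 58864, chr4:129489008-129491730, minus strand), which mice need for male fertility, was at 21.5, 30.5 and 30.3 CPM in PAC, 111.2, 120.1 and 124.5 CPM in RS and 338.6, 358.8 and 394.2 CPM in ES. The cell types were well apart, with ES replicate 1 the lowest of its group. In CPM the SD was 18.7% of the mean in PAC, 5.69% in RS and 7.73% in ES, and in FPKM it was 18.1% in ES. For Tssk3 the log2 fold change was 2.11 ± 0.16 in RS against PAC (SE, edgeR adjusted p = 8.41e-07) and 1.62 ± 0.15 in ES against RS (adjusted p = 1.22e-05), and ES was 13.3-fold higher than PAC. Fam229a, a gene on the other strand, overlaps Tssk3 by 541 bases. It averaged 343.8 ± 16.5 CPM in RS and 92.7 ± 15.5 CPM in PAC (SD, n = 3 each), a log2 fold change of 1.89 (edgeR adjusted p = 1.18e-05), but 394.3 ± 124.0 CPM in ES, where the change against RS, 0.2, was not called (adjusted p = 0.448).

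Tssk4 (gene 71099, chr14:55643651-55652539), the kinase of ODF2, peaked in RS. It was at 73.3, 100.5 and 90.5 CPM in PAC, 272.4, 256.7 and 239.5 CPM in RS and 105.4, 101.1 and 91.5 CPM in ES. The RS libraries stood above all others, and the ES and PAC libraries overlapped. For Tssk4 the log2 fold change was 1.54 ± 0.14 in RS against PAC (SE, edgeR adjusted p = 3.74e-06), -1.37 ± 0.14 in ES against RS (adjusted p = 2.35e-05) and 0.17 ± 0.14 in ES against PAC (adjusted p = 0.304). With upper-quartile scaling the last was 0.48 and called (adjusted p = 0.0119), and in FPKM it was -0.1.

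Tssk5 (gene 73542, chr15:76371958-76375191, minus strand) had the same shape at the lowest level of the family. It was at 7.71, 10.5 and 11.9 CPM in PAC, 23.4, 26.7 and 25.5 CPM in RS and 5.03, 7.59 and 12.3 CPM in ES. The RS libraries again stood above all others. For Tssk5 the log2 fold change was 1.33 ± 0.28 in RS against PAC (SE, edgeR adjusted p = 0.00125), -1.6 ± 0.28 in ES against RS (adjusted p = 0.000837) and -0.26 ± 0.28 in ES against PAC (adjusted p = 0.429). Without ES replicate 3 the last was -0.67 and called (adjusted p = 0.0302).

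The order of the family by level per length changed with cell type. In PAC, Tsacc led with 341.0 ± 65.1 FPKM (SD, n = 3), followed by Tssk1 with 116.5 ± 18.8 FPKM and Tssk2 with 101.7 ± 18.1 FPKM, whose libraries overlapped. Tssk4, Tsks and Tssk6 came next, with means of 72.1, 71.7 and 69.4 FPKM and overlapping libraries, then Tssk3 with 29.9 ± 5.74 FPKM and Tssk5 with 6.6 ± 1.45 FPKM. In RS, Tsacc had 633.6 ± 27.4 FPKM, and Tssk6 with 511.0 ± 36.0 FPKM and Tssk2 with 463.7 ± 7.24 FPKM overlapped. Tssk1 at 432.4 ± 20.0, Tsks at 342.8 ± 8.89, Tssk4 at 217.7 ± 15.0, Tssk3 at 131.2 ± 7.59 and Tssk5 at 17.2 ± 1.01 FPKM followed without overlap. In ES, Tssk6 led with 1744 ± 109.6 FPKM. Tsacc with 870.5 ± 250.5 FPKM and Tssk2 with 766.8 ± 98.1 FPKM overlapped, Tsks followed with 441.4 ± 101.5 FPKM, Tssk3 with 314.2 ± 56.8 and Tssk1 with 259.1 ± 67.0 FPKM overlapped, and Tssk4 with 66.7 ± 5.49 and Tssk5 with 4.66 ± 2.35 FPKM came last.

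The 6 kinases summed to 396.2 ± 71.0 FPKM in PAC, 1773 ± 27.6 FPKM in RS and 3155 ± 170.6 FPKM in ES (SD, n = 3 each), and the part of Tssk6 in the sum was larger at each step. Tssk6 made up 17.4% ± 1.97 of the sum in PAC, 28.8% ± 1.83 in RS and 55.3% ± 2.0 in ES, without overlap. Tssk2 made up 25.6%, 26.1% and 24.3%, with overlapping libraries. Tssk1 made up 29.5%, 24.4% and 8.16%, Tssk4 18.2%, 12.3% and 2.12%, and Tssk5 1.67%, 0.969% and 0.151% in PAC, RS and ES. Tssk3 stood at 7.55%, 7.4% and 10.1%, with overlapping libraries and ES replicate 1 at 7.66%. The shares of 1 library add up to the whole, so a larger share of Tssk6 lowers those of the others.

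**Figure D4:**
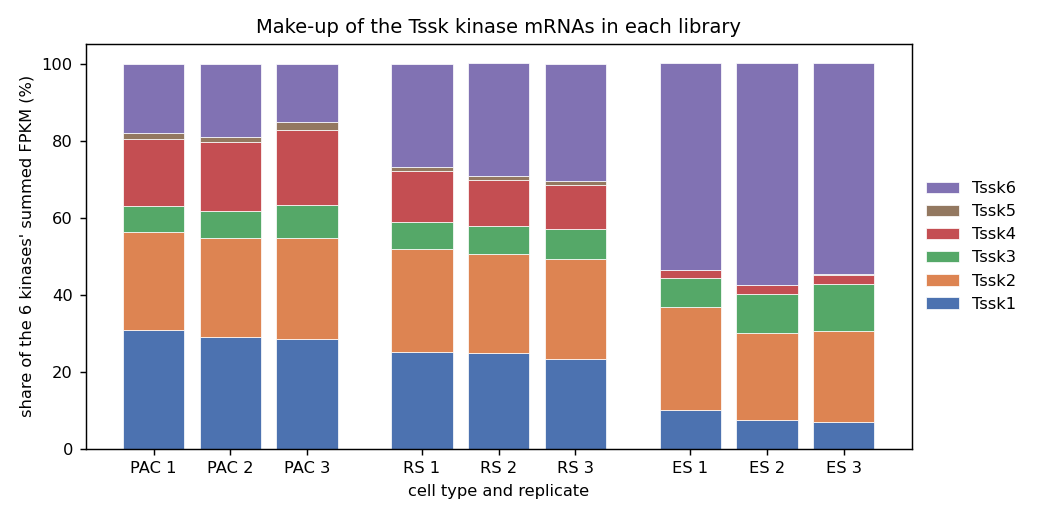
Share of the summed FPKM of the 6 Tssk kinases held by each (vertical axis, %) in every PAC, RS and ES library (bars). Tssk6 holds 53.6% to 57.5% in the ES libraries and 15.2% to 19.0% in the PAC libraries, and the shares of Tssk1 and Tssk4 are smaller in ES.

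In CPM after TMM scaling, ES replicate 1 was the highest ES library for Tssk1, Tssk2, Tssk4, Tssk6, Tsks and Tsacc and the lowest for Tssk3 and Tssk5. In FPKM it was the highest for Tssk1, Tssk2, Tsks and Tsacc and the lowest for Tssk3, Tssk4 and Tssk5, while Tssk6 had 1766 FPKM there and 1840 and 1624 FPKM in the other ES libraries. The ES against RS values of each gene are drawn under all alternatives so that its weight can be read off. Without it 5 genes were called higher and 3 lower, the third being Tssk1, where 6052 and 5648 of 27119 features were.

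**Figure D5:**
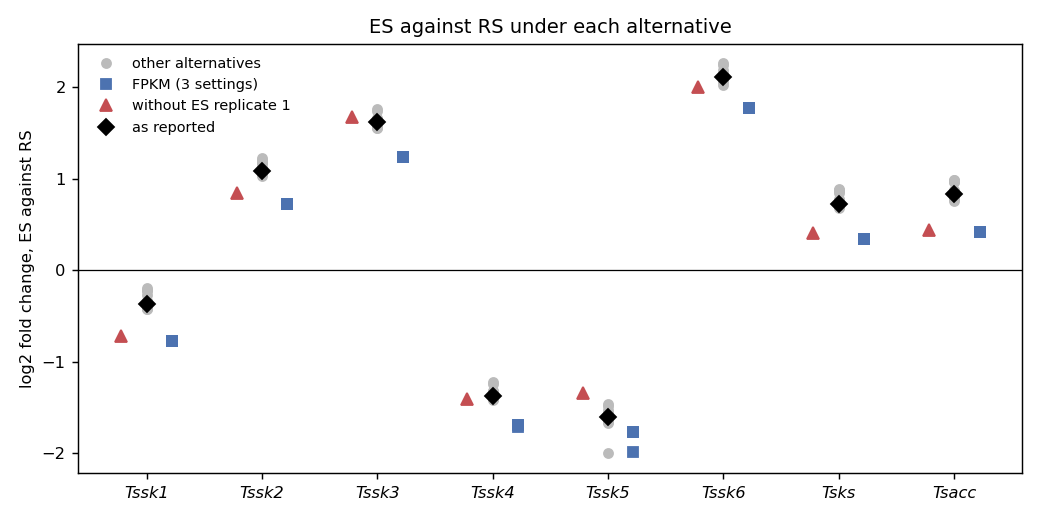
Log2 fold change in ES against RS (vertical axis) of each gene as reported (black diamonds), without ES replicate 1 (red triangles), with the authors' FPKM under 3 settings (blue squares) and under the other alternatives (grey). No gene changed sign, and the FPKM values lie below the reported ones, for example 1.77 against 2.11 for Tssk6.

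Genes with the most similar profiles to each of the 8, over the 9 libraries and among 7674 protein-coding genes with a mean of at least 10 CPM, differed from gene to gene. Those of Tssk6 were Cabs1, Acte1 and Gm614, at a root mean square difference of 0.072 to 0.158 on the log2 scale. Those of Tssk3 were Prkcq, which encodes a protein kinase C (0.054), Gm17067 and 2810408A11Rik. Those of Tssk2 included Mid1 (0.083) and Vasp (0.084), and those of Tssk1 were Pdzrn4 (0.034), 1700011L22Rik and Izumo3. Those of Tssk4 were Bri3 (0.078), Efcab9 and Spaca3, and those of Tssk5 were Avl9 (0.112), Zfp169 and Ogfod1. Those of Tsks were Chn2 (0.076), Actrt1 and Prdx4. Those of Tsacc were Mea1 (0.107), Ndufa13, the gene that overlaps Tssk6, and Cdc34. Cabs1 averaged 163.2 CPM in PAC, 1120 CPM in RS and 4828 CPM in ES.

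Counts over neighbours and gene lists are to be read against all protein-coding genes tested. Of these, 26.3% were called higher and 46.9% lower in RS than in PAC, 31.8% and 21.7% in ES than in RS, and 25.2% and 42.6% in ES than in PAC. Their median log2 fold changes were -0.46, 0.18 and -0.39. Over all features the shares were 38.2% and 34.2%, 24.5% and 22.1%, and 30.6% and 33.7% in the same order.

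The genes around the 8 loci were called in both directions. Of 18 distinct protein-coding neighbours, all tested, 6 were higher and 6 lower in RS than in PAC, with a median log2 fold change of -0.13, and 5 were higher and 4 lower in ES than in RS. Beside Tssk1, Dgcr2 was higher in RS than in PAC by 1.33 (edgeR adjusted p = 4.68e-06). Beside Tssk2, Ess2 was lower in ES than in RS, by a log2 fold change of -0.79 (edgeR adjusted p = 0.000652).

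The chaperones of kinase folding, 12 genes of the HSP90 and HSP70 systems, had 9 lower and 2 higher members in RS than in PAC (median log2 fold change -0.78, against -0.46 over protein-coding genes and 0.11 over all features). Hspa1l, an HSP70 of spermatids, averaged 508.7 ± 32.3 CPM in RS and 88.3 ± 19.5 CPM in PAC (SD, n = 3 each), a log2 fold change of 2.53 (edgeR adjusted p = 2.37e-06). Hspa4l, an HSP110 chaperone, was higher by 0.51, while Hspa8, a constitutive HSP70, and Hsp90ab1, the constitutive HSP90, were lower, with log2 fold changes of -2.01 and -1.77. In ES relative to RS, 5 were higher and 2 lower (median 0.11, against 0.18 over protein-coding genes and 0.05 over all features). The higher ones included Hsp90ab1 (1.61) and Hspa8 (1.42), and the lower ones were Cdc37, which hands kinases to HSP90 (-0.72), and Ahsa1, an activator of HSP90 (-0.43). Relative to PAC, 2 were higher in ES, Hspa1l and Hspa4l, with log2 fold changes of 3.61 and 1.14, and 8 were lower, Cdc37 and Ahsa1 by the most, with -1.36 and -1.19.

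Of 10 genes for the phosphatase, the activating kinase and reported substrates, 4 were higher and 3 lower in RS than in PAC (median log2 fold change -0.11), 4 higher and 1 lower in ES than in RS (0.38), and 3 higher and 5 lower in ES than in PAC (-0.22). The medians over protein-coding genes were -0.46, 0.18 and -0.39, and with 10 genes these counts show nothing particular to the list. Odf2, the tail protein that TSSK4 phosphorylates, averaged 3965 ± 109.4 CPM in RS and 2091 ± 49.7 CPM in PAC (SD, n = 3 each), a log2 fold change of 0.92, and was higher in ES than in PAC by 1.64. H2ax, a histone variant, had 11.4 ± 3.05 CPM in RS and 218.6 ± 37.5 CPM in PAC, a log2 fold change of -4.26, and was higher in ES than in RS by 2.1. Pdpk1, the kinase PDK1, was higher in ES than in RS by 0.83, and Crem was lower by a log2 fold change of -0.65. Creb1 was lower in RS than in PAC, with -1.13, and Ppp1r11, an inhibitor of protein phosphatase 1, was higher by 0.68.

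Other kinases were called in both directions. Of 21 tested genes of the AMPK-related kinases, the branch of the kinome to which the Tssk genes are related, and their activators, 5 were higher and 7 lower in RS than in PAC, and 6 were higher and 6 lower in ES than in RS (median log2 fold changes -0.33 and 0.34, against -0.46 and 0.18 over protein-coding genes). Nuak1 was not tested. In RS relative to PAC, Sik1 and Snrk were higher by 1.48 and 1.26, and Mark2 and Mark1 lower, with -3.87 and -2.9. In ES relative to RS, Mark4 and Mark2 were higher by 1.98 and 1.78, and Mark3 and Brsk2 lower, with -1.43 and -1.17. Of 15 other kinases described in germ cells, 3 were higher and 7 lower in RS than in PAC (median -0.4, against -0.46 over protein-coding genes, of which 26.3% were higher and 46.9% lower). The calmodulin-dependent kinase gene Camk4 averaged 61.9 ± 3.18 CPM in RS and 14.7 ± 1.13 CPM in PAC, and Hipk4, needed for shaping the sperm head in mice, 136.5 ± 7.84 CPM in RS and 41.1 ± 4.51 CPM in PAC (SD, n = 3 each). Cilk1 and Cdk20 were lower, with log2 fold changes of -1.79 and -1.76. In ES relative to RS, 6 were higher, 1 was lower and 8 were not called. The median was 0.02, against 0.18 over protein-coding genes, of which 31.8% were higher and 21.7% lower. The lower one was Hipk4 (39.1 ± 4.3 CPM in ES, a log2 fold change of -1.8 and an edgeR adjusted p of 4.5e-06). Its course had the same shape as that of Tssk4.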

How the data were processed

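Ribosomal RNA was removed from total RNA and strand was kept by dUTP, per the labels. Per the submitters' processing notes, HISAT2, StringTie and GRCm38.p6 were used, with no order of steps stated. The authors deposited estimated counts, of which 18.85% of values were not whole, and these were rounded for testing. They also deposited FPKM, with unstated lengths and totals. FPKM served for levels between genes and, as log2 values tested with limma, as an alternative.

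Symbols and coordinates came from RefSeq (GRCm38.p6), and coding sequences from GENCODE vM21 (GRCm38). Features passed edgeR's filterByExpr (minimum count 10, 26030 kept, 24463 removed), were TMM-scaled and tested in 1 quasi-likelihood model over 9 libraries (two-sided, robust, Benjamini-Hochberg over all features, called below 0.05). CPM values are after TMM scaling. The lowest count of any of the 8 genes in a library was 93. The script was tested on counts simulated from its own fitted spread, with only a small part of the features changed. That setting does not test the scaling where many features differ, as they did here. Software was edgeR 4.0.16, DESeq2 1.42.0 and limma 3.58.1 in R 4.3.3, and SciPy 1.17.1, Biopython 1.88 and matplotlib 3.10.9 in Python 3.11.15.

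The 8 genes and the gene lists were chosen with earlier results of these data known. All 8 were named. Of each list at most 4 called genes per comparison were eligible, the 2 with the largest positive and the 2 with the largest negative log2 fold change. Alternatives were other normalizations, filters, DESeq2, FPKM pseudocounts of 1 and 0.1, a replicate block and leaving out each library. One gene among those with similar profiles is not reported here. The summing of Tssk1 and Tssk2 was added after the data had been seen.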

Additional observations from a re-analysis of the deposited data

How the results depend on the processing

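Of 483 log2 fold changes computed under alternatives, 460 kept their direction and call. All 8 genes were called higher in RS than in PAC under every alternative that kept them apart, and with Tssk1 and Tssk2 summed so were all 7 entries. The number called higher in ES than in RS was 5 as reported and 3 with each FPKM setting (pseudocounts of 1 and 0.1, and no filter), where Tsks and Tsacc were not called. It ran from 3 to 5 when single libraries were left out, with 3 without RS replicate 3. Over all features, 6374 of 26030 were called higher as reported, and 4469 and 4202 of 29135 with FPKM pseudocounts of 1 and 0.1. With unfiltered FPKM 3507 of 50493 were, and without RS replicate 3, 5214 of 26786. The number called lower in ES than in PAC was 0 to 1 when single libraries were left out. It was 1 without ES replicate 3, where 8904 of 27181 features were lower. Values that changed sign had not been called: Tssk4 in ES against PAC was -0.1 under the 3 FPKM settings, Tssk5 in ES against PAC was 0.04 with upper-quartile factors, and the Tsks to Tssk2 ratio in RS against PAC was -0.02 without PAC replicate 3 (-0.02 to 0.15 when single libraries were left out). The cause was not tested. Upper-quartile factors moved the median of all features by 0.31 in RS against PAC and by 0.3 in ES against PAC, DESeq2 size factors moved it by 0.14 in ES against RS, and FPKM with a pseudocount of 0.1 by -0.32 in ES against RS. Whether same-numbered libraries belong together beyond their number is not given in the sources used here. Correlations of their deviations from the cell type mean cannot decide it with 3 libraries per cell type. Same-numbered libraries gave -0.016, 0.025 and 0.106 for RS and PAC, and 0.034, -0.04 and 0.068 for ES and RS. For ES and PAC they gave 0.185, -0.024 and 0.273. Differently numbered libraries gave -0.1 to 0.082, -0.118 to 0.094 and -0.254 to 0.088 in the same order. With a replicate block 8 genes were again higher in RS than in PAC, and 5 higher and 2 lower in ES than in RS. The number of libraries, 3 per cell type, limits the ratio tests, which cannot reach 0.05. The lowest levels, those of Tssk5, are the least precise.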
